A study of Mus musculus with 8 samples.

Results

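The sites on DNA at which the histone deacetylase Hdac3 was listed by ChIP-seq in old and in young mouse liver were compared. All sites of the Hdac3 list at 3 months (young) and of the Hdac3 list at 21 months (old) were taken, 5828 and 2930 sites, together 8758 of the 28196 sites in the 4 lists of the series. A site was called found at both ages when it overlapped a site of the other age by at least 1 bp. Each age had 2 libraries, and both libraries of an age were represented by 1 list. The animals were wild-type C57BL/6 mice, an inbred laboratory strain, and the chromatin came from snap-frozen whole liver, precipitated with a rabbit antibody to Hdac3. Lists for Foxa2, made from liver of the same strain and ages with 2 libraries each, served as a second readout. The sex of the mice, the hour of collection, the feeding state and the number of animals were not given in the sources used here.

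Hdac3 removes acetyl groups from histones and works as the enzyme of the NCoR and SMRT corepressor complexes, which are brought to DNA by nuclear receptors such as the clock protein Rev-erb alpha. In liver it is known for restraining genes of lipid synthesis, and its binding there is known to follow the time of day. Foxa2, a forkhead transcription factor of hepatocytes, can bind closed chromatin. The design asked where Hdac3 lay on the genome at each age. Positions are those of mm9 as the lists give them, and no gene names or sequences stand beside them, since an annotation and a genome of that build were not used here. For each site the lists give an enrichment, which is the authors' ratio and whose reference was not given in the sources used here. They also give the authors' q-value, an adjusted p-value where a low value marks a more certain site. With 1 list per age no value has a replicate error and no difference between the ages was tested. Intervals are exact (Clopper-Pearson) 95% intervals that cover counting error only. Whole liver holds several cell types, so Hdac3 on DNA in more cells and more Hdac3 per cell cannot be told apart.

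Over the full lists few Hdac3 sites were found at both ages, while of the 76 young and 87 old sites with q up to 0.01 most were. In the young list 158 of 5828 sites overlapped an old site, 2.71% of the list, and in the old list 163 of 2930 sites overlapped a young site, 5.56%. When only sites with q up to 0.05 were taken from each list, the shares were 63.8% of young and 28.8% of old sites, and with q up to 0.01 they were 75% and 65.5%. All but 11 young and 11 old sites with q up to 0.01 lay in regions that all 4 lists hold. Such regions contain sites of both Hdac3 lists by definition. Over the full Foxa2 lists, without a q limit, the same overlap rule called 40.7% of the young and 21.0% of the old sites, beside 2.71% and 5.56% for Hdac3. Most Hdac3 sites had no near neighbour at the other age either. The median distance from a young site to the nearest old site was 409 kb, and from an old site to the nearest young site 164 kb. Within 10 kb of the other age without overlapping lay 245 of 5828 young and 296 of 2930 old sites. Outside the dense runs defined below, these were 178 of 5694 young and 178 of 2726 old sites, so the higher old count came from the runs. More than 1 Mb away lay 1439 young sites, 24.7% of the list (interval 23.6 to 25.8), and 282 old sites, 9.62% (8.58 to 10.8). The young list is the longer one, so a site drawn from the old list has more partners to lie near, and the shares of both lists cannot be set against each other directly.

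**Figure D1:**
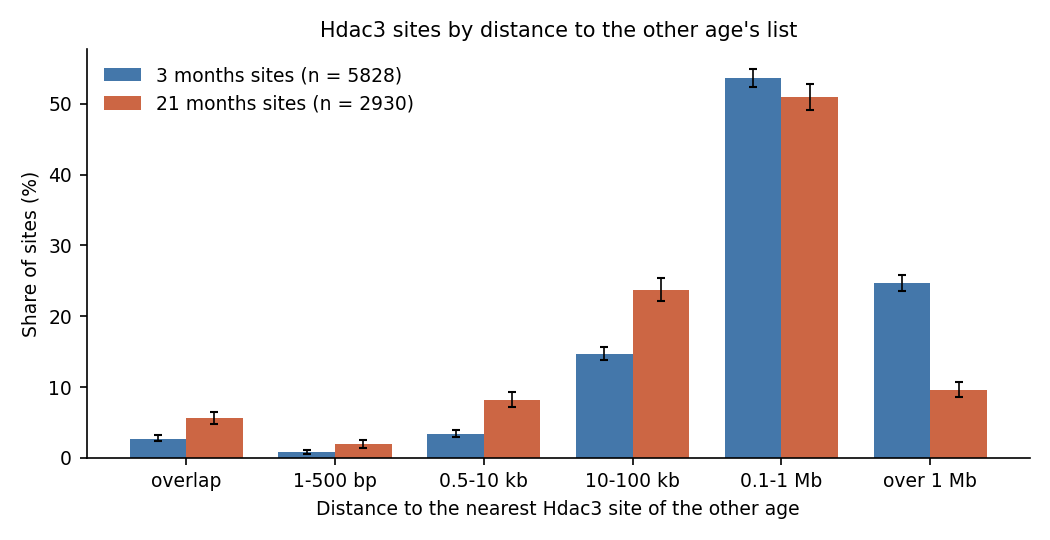
Share of Hdac3 sites (vertical axis, percent) by distance to the nearest Hdac3 site of the other age (horizontal axis), for the 5828 young and the 2930 old sites, with exact 95% intervals for counting error. The largest share of both lists lay 0.1 to 1 Mb from the other age, and 2.71% of young and 5.56% of old sites overlapped it.

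The length of the lists did not give a stable direction. The ratio of old to young sites was 0.503 (0.481 to 0.526). On each of the 19 autosomes the old list was the shorter, with ratios from 0.387 on chromosome 18 to 0.622 on chromosome 10. On the X chromosome the ratio was 0.577, with 176 old and 305 young sites. At a q of at most 0.1, 76.0% of the old list but 22.1% of the young list was left, and the ratio turned to 1.73, with 2227 old and 1288 young sites. At 0.05 the ratio was 2.22. It was 6.0 there without the regions that all 4 lists hold, with 150 old and 25 young sites. At 0.01 the ratio over all regions was 1.15, with an interval of 0.832 to 1.58 that includes 1. Outside the regions that all 4 lists hold, 11 old and 11 young sites were left.

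Sites found at both ages were wide, and sites of 1 age were mostly narrow. In the young list the median width was 160 bp (quartiles 96.2 and 398) for sites of both ages and 25 bp (11 and 45) for young-only sites. In the old list it was 167 bp (100 and 386) for sites of both ages and 21 bp (9 and 42) for old-only sites. Among sites of 1 to 10 bp, 3 of 1368 young and 5 of 819 old sites were found at both ages. The share stayed under 1% up to 59 bp, stood at 3.89% of young and 7.86% of old sites from 60 to 99 bp, and was 48.5% and 60.2% from 100 bp to under 200 bp. Of the sites of at least 500 bp, 30 of 32 young and 31 of 36 old sites were found at both ages. A wide site meets another more easily than a narrow one, and the part of this in the step was not tested. Counted with a site of the other age within 500 bp, overlapping ones included, the shares also rose with width. Up to 10 bp, 0.585% of young and 1.47% of old sites had one, against 0.219% and 0.61% by overlap alone. From 100 bp to under 200 bp, 54.5% and 68.2% had one.

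The same step was seen against Foxa2. Over all widths, 6.04% of young and 9.66% of old Hdac3 sites overlapped a Foxa2 site of either age. Up to 10 bp the shares were 2.70% and 1.59%, from 100 bp to under 200 bp they were 69.7% and 81.8%, and all 32 young and all 36 old sites of at least 500 bp overlapped a Foxa2 site. Many of the wide sites lay in the 103 regions of the series that all 4 lists hold, both ages of Hdac3 and of Foxa2. Of the sites of at least 500 bp, 27 young and 29 old ones did. Part of the wide sites also lay in dense runs (5 or more sites of a list with gaps of at most 10 kb), 19 young and 22 old ones of at least 500 bp.

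**Figure D2:**
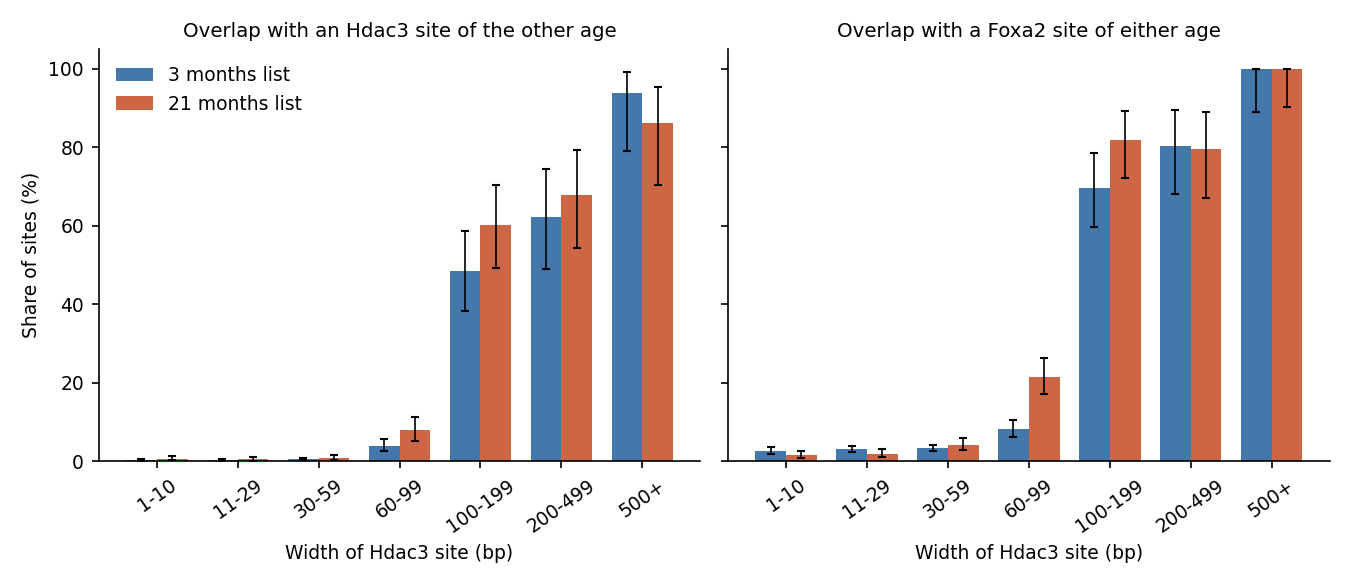
Share of Hdac3 sites (percent) that overlap an Hdac3 site of the other age (left) or a Foxa2 site of either age (right), by the width of the Hdac3 site in bp, with exact 95% intervals for counting error. In both lists both shares stay low up to 59 bp and reach 48.5% or more from 100 bp on.

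The sites found at both ages formed 157 places, where a place joins the young and old sites that overlap. Their enrichment was close at both ages. The median was 4.79 at 3 months and 4.41 at 21 months, the median ratio of old to young was 0.993 (exact interval of the median 0.863 to 1.07), and 76 of the 157 places were higher in the old list. At least 2-fold higher in the old list were 12 places, 7.64% of them, and at least 2-fold lower were 26, 16.6%. Widths were close too, with a median ratio of 1.01 (0.993 to 1.05). Across the 157 places the enrichments of both lists had a Spearman rho of 0.743 and a Pearson r on the log2 scale of 0.683. These describe the places, which share their lists and in part their runs. In the run on X from 166410589 to 166446140, singled out after its values were seen, 11 of 16 places were at least 2-fold lower in the old list, with a median ratio of 0.386. Elsewhere 15 of 141 were, with a median ratio of 1.02. The places were uneven along the genome: 34 lay on chromosome 9, 20 on X, 15 on chromosome 1 and 14 on chromosome 8, and 1 each on chromosomes 7, 14, 15 and Y.

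The 4 places with the best rank in both lists, over all regions, were alike in width and enrichment. A choice by both ranks can favour likeness. The places chosen in the same way outside the regions held by all 4 lists, named further below, were mostly less alike. The broadest of them, on chromosome 17 from 39979925 to 39985781, had rank 1 in both lists, measured 5857 bp (young) and 5799 bp (old), and had an enrichment of 3.96 and 4.85. On chromosome 2 the sites from 98506358 to 98507531 and from 98502352 to 98503176 had the same begin and end at both ages, with enrichments of 3.21 and 2.91 for the first and 3.53 and 3.26 for the second. On chromosome 9 the place from 3000000 to 3001510 had enrichments of 5.69 and 6.43. A wide place could also be unequal. On X from 166433346 to 166434145, chosen after its values were seen, the sites were 800 and 635 bp wide with enrichments of 9.64 and 1.77. The enrichments of the best-ranked places were below the median of all sites, 18.2 at 3 months and 15.9 at 21 months. High enrichment at both ages was found at narrower places. On chromosome 13 from 74666112 to 74666245 it was 99.5 at 3 months and 144 at 21 months. The place on chromosome 19 from 61000556 to 61000702 had 132 and 97.7, the one on chromosome 6 from 49186431 to 49186591 had 124 and 81.7, and the one on chromosome 16 from 10975131 to 10975282 had 79.9 and 92.0. These 4 places and the 4 best-ranked ones were in regions held by all 4 lists.

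Outside the regions that all 4 lists hold, 46 places were left, on 17 chromosomes, and 22 of them lay in runs. Their median enrichment was 4.55 at 3 months and 4.84 at 21 months, and the median ratio was 1.08 (0.863 to 1.36). Single places differed more: 25 of the 46 were within 2-fold, 9 were at least 2-fold higher in the old list and 12 at least 2-fold lower. Of the 46 places, 31 overlapped a young Foxa2 site, 3 an old one and 12 none. A place on Foxa2 sites of both ages belongs to a region held by all 4 lists, so none could be left here. The best-ranked were on chromosome 8 from 19929872 to 19929979 (enrichment 18.5 at 3 months and 180 at 21 months) and from 19983709 to 19983790 (15.1 and 16.3), on chromosome 5 from 116473411 to 116473609 (37.6 and 15.3) and on chromosome 1 from 90119464 to 90119915 (17.0 and 3.02). Their q-values ran from 0.0293 to 0.0999, far from those of the broad places.

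The most unequal places outside those regions often differed in width as well. The largest ratio of old to young, 52.1, was on chromosome 8 from 19884130 to 19884209, with enrichments of 4.63 and 241 and widths of 66 and 80 bp. Next came chromosome 9 from 10680692 to 10680729, with 6.68 over 37 bp in the young list and 270 over 9 bp in the old list, and chromosome 18 from 20724539 to 20724636, with 21.7 over 98 bp and 509 over 6 bp. The fourth was the best-ranked place on chromosome 8 named above. The smallest ratio, 0.0114, was on chromosome 8 from 19919273 to 19919521, where the young site had an enrichment of 703 over 8 bp and the old one 8.03 over 249 bp. The other low ratios were on chromosome 8 from 19875339 to 19875389 (194 and 7.09, over 46 and 29 bp), at the place on chromosome 1 named above (over 20 and 452 bp) and on chromosome 16 from 93832367 to 93832470 (273 and 55.5, over 13 and 97 bp). In 5 of these 8 places the list with the higher enrichment had the narrower site. All 5 places named on chromosome 8 lay between 19875339 and 19983790, with ratios of both directions.

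**Figure D3:**
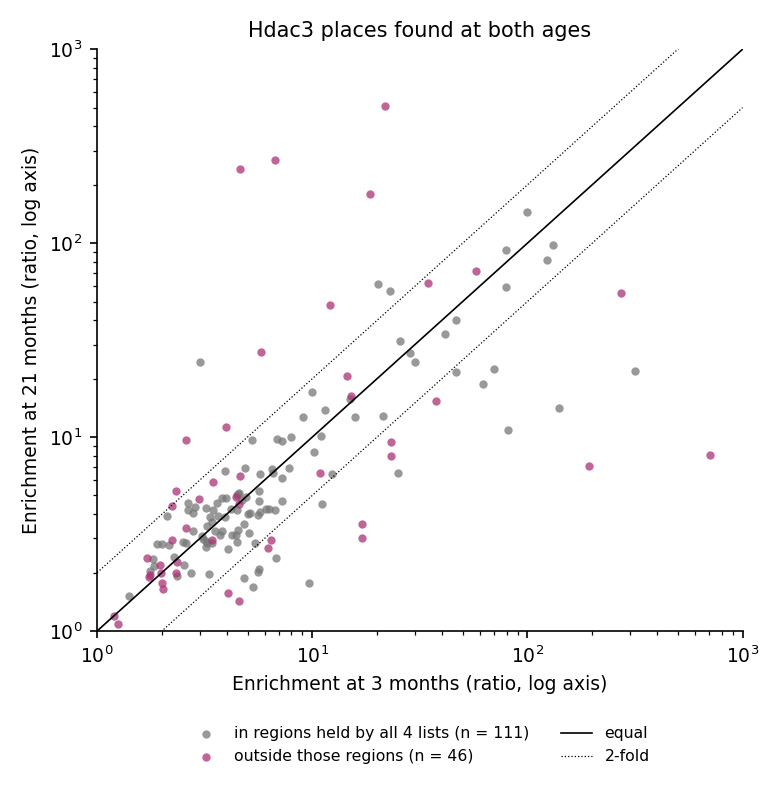
The authors' enrichment of the 157 Hdac3 places found at both ages, at 3 months (horizontal, log axis) and 21 months (vertical, log axis), with lines of equal and 2-fold different enrichment. The 111 places in regions held by all 4 lists gather near the line of equal values, 94 of them within 2-fold, and the 46 places outside them include the widest departures.

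Enrichment went with width in a similar way in both lists. Narrow sites fell into 2 bands. Of the sites up to 10 bp wide, 710 young and 435 old sites had an enrichment of 25 or less, 658 young and 384 old sites had 75 or more, and none lay in between. In the upper band the enrichment fell as sites widened. Among sites with an enrichment of 40 or more its median went from 510 at 1 to 10 bp to 132 at 11 to 29 bp and 67.7 at 30 to 59 bp in the young list, and from 472 to 119 and 62.7 in the old list. The highest values of all were at the narrowest sites. In the young list they were 8037 on chromosome X at 32109424, 5784 on chromosome 5 at 7501473, 5416 on chromosome 4 at 23572518 and 5353 on chromosome 19 at 31101304, each a site of 1 bp. In the old list they were 11226 on chromosome X from 23840909 to 23840910, 8978 on chromosome X at 101269338, 4236 on chromosome 6 at 5939942 and 3600 on chromosome 8 at 45766479. None of these 8 was found at the other age or on a Foxa2 site, and their q-values ran from 0.0544 to 0.154.

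**Figure D4:**
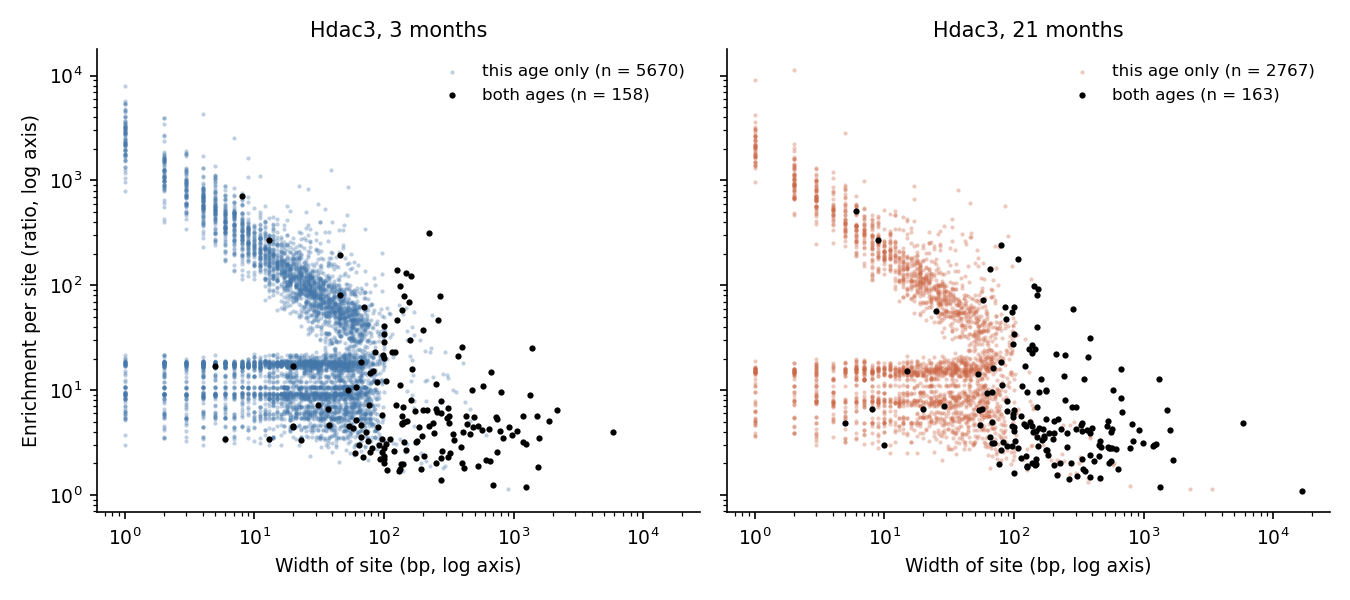
Enrichment (vertical, log axis) against width in bp (horizontal, log axis) of each Hdac3 site, at 3 months (left) and 21 months (right), with sites found at both ages in black. In both lists narrow sites form an upper band that falls with width and lower bands at fixed values, and the black points lie mostly at 100 bp or more.

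The lower band was made of few repeated values. On chromosome 1 of the young list 100 sites shared the enrichment 17.0, 50 had 8.52, 27 had 19.9 and 24 had 9.94. These equal 6, 3, 7 and 7 over 2 steps of the same size. On chromosome 1 of the old list 38 sites had 14.97, 21 had 17.1, 14 had 7.49 and 12 had 4.99, which equal 7, 8, 7 over 2 and 7 over 3 steps. The size of a step differed between chromosomes. The commonest value of a chromosome was divided into 3 to 9 steps, by the number that placed most sites, and a site was placed when its value was 3 or more whole steps over 1, 2 or 3. The tolerance was 0.0005 for the rounding of the site's value, plus the same rounding carried through the step. The step is fixed only up to a common divisor, so numbers of steps are not compared between chromosomes or lists. This placed 87.8% of the 3595 young and 81.0% of the 1894 old sites with an enrichment under 40. What a step stands for was not given in the sources used here. Sites on these steps were seldom found at both ages, 33 of 3058 young (1.08%) and 25 of 1482 old autosomal sites (1.69%). Sites under 40 that were not on the steps were found at both ages in 88 of 409 young (21.5%) and 97 of 337 old autosomal sites (28.8%), with median widths of 63 and 70 bp.

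Wide Hdac3 sites of 1 age, outside runs and outside regions held by all 4 lists, differed between the lists in enrichment. This set was chosen after its values were seen, so its counts are a description. Of at least 200 bp there were 14 such sites in the young list, on 10 chromosomes, and 8 in the old list, on 4 chromosomes. The young ones had a median enrichment of 13.2, with 12 of 14 at 5 or more, and all of these 12 lay over 10 kb from any old Hdac3 site. The old ones had a median enrichment of 1.52 and a highest value of 3.63, so that none reached 5, and 2 of 8 lay over 10 kb from a young site. Most of these old sites were neighbours of each other. Chromosome 11 held a group of them between 3029151 and 3082981, and chromosome 2 another between 181652104 and 181666278. The old median and the lack of values of 5 or more thus rest on fewer separate loci than sites. At a width of at least 100 bp there were 55 young sites with a median enrichment of 19.8 and 24 old sites with 5.62, and 45 young and 10 old sites had an enrichment of at least 5 and lay over 10 kb from the other age. The young list is the longer one, which these counts do not take into account.

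The young-only site with the lowest q outside runs, on chromosome 17 from 4626285 to 4626572, had an enrichment of 14.2, a q of 6.79e-04 and lay 820 kb from the nearest old Hdac3 site, on an old Foxa2 site. With q no higher than 0.05 there were another 6 among the 14 wide young-only sites. The highest enrichment, 52.4, was on chromosome 7 from 35904091 to 35904324. The site on chromosome 3 from 21885656 to 21885949 had 23.1, and the site on chromosome 16 from 33947950 to 33948156 had 23.8. On chromosome 1 the value was 18.0 (167391138 to 167391542), on chromosome 5 it was 14.1 (128121889 to 128122196) and on chromosome 11 it was 9.99 (102091377 to 102091719). Those on chromosomes 3, 5 and 16 overlapped an old Foxa2 site and no young one, and those on chromosomes 7, 1 and 11 overlapped no Foxa2 site. The other young-only sites with the lowest q, on X at 166421027 to 166421451, 166411491 to 166411955 and 166442262 to 166442623, lay in a run, 191 to 532 bp from an old site, so that they were young-only by the rule of overlap alone. The 2 widest young-only sites, on chromosome 11 from 3049484 to 3050393 and on X from 166422646 to 166423261, had enrichments of 1.14 and 3.77.

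Among old-only sites the lowest q was on chromosome X from 73843905 to 73844495, 591 bp wide, with an enrichment of 2.04, a q of 4.16e-05 and a distance of 619 kb to the nearest young Hdac3 site. Foxa2 sites of both ages lay there. On chromosome 12 from 68160393 to 68160498 the enrichment was 33.9 and the nearest young site was 240 kb away. The sites on chromosome 5 from 37052169 to 37052303 (enrichment 114) and on chromosome 18 from 3010706 to 3010995 (4.93) lay 320 and 4329 bp from a young site. The 2 widest old-only sites, on chromosome 11 from 3075267 to 3078646 and from 3080704 to 3082981, had enrichments of 1.13 each and lay next to the widest place of all, from 3083223 to 3099985, where the old list had 16763 bp at an enrichment of 1.08 and the young list 693 bp at 1.25.

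Part of the sites came in such runs. The young list had 8 runs with 134 sites, 2.30% of the list (1.93 to 2.72), and the old list had 11 runs with 204 sites, 6.96% (6.07 to 7.95). Within runs 44.8% of young and 36.8% of old sites were found at both ages, against 1.72% and 3.23% outside them. The order of the lists depended on the gap allowed: with gaps of at most 1 kb the shares in runs were 0.755% of young and 1.91% of old sites, and with 100 kb they turned to 16.4% and 10.9%. Joined across the lists, the runs made 15 windows. In 4 both lists had a run, in 4 only the young and in 7 only the old list, and 14 held sites of both lists. The windows held 190 young and 82 old Foxa2 sites.

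The 3 windows with 20 or more sites of an Hdac3 list were unlike each other. The window on chromosome 9 from 3000000 to 3038289 was nearly the same at both ages, with 27 young and 29 old sites, 27 of each found at both ages, and median enrichments of 4.18 and 4.31. The window on chromosome 1 from 90109957 to 90206465 held 37 young and 73 old sites, of which 10 of each were found at both ages, with median enrichments of 3.41 and 3.42, and the sites covered 3092 bp in the young and 7371 bp in the old list. In the Foxa2 lists the order of the ages was the other way round there, with 69 young and 18 old sites. The window on X from 166410589 to 166446140 held 32 young and 26 old sites, with median enrichments of 6.48 and 2.67 and 16090 against 6479 bp covered. Foxa2 sites there numbered 19 and 14 and covered 28015 and 3870 bp. Of the smaller windows, the one on chromosome 19 from 5840686 to 5846850 had 7 young and 1 old site, the one on chromosome 10 from 80217727 to 80235197 had 5 young and 0 old sites, and the one on chromosome 16 from 3232795 to 3271898 had 2 young and 14 old sites. These 3 were chosen after their values were seen.

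The assembled end of the mouse autosomes next to the centromere held a larger share of the old list. The centromere itself is not part of the assembly, and the first listed sites began at 3000000. Between 3 and 3.5 Mb lay 67 young sites, 1.15% of the list (0.892 to 1.46), and 91 old sites, 3.11% (2.51 to 3.80). On chromosome 9 the numbers were 28 and 30, and on the other autosomes 39 and 61. Of the latter, 6 young and 28 old sites lay in the windows of runs on chromosomes 16, 17 and 18, and 33 of each list lay outside them. This window was also chosen after the values were seen.

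Of the Hdac3 sites of 1 age, a larger share lay on Foxa2 sites of the opposite age than on those of their own age. Of the 5670 young-only Hdac3 sites, 97 overlapped a young Foxa2 site, 1.71% (1.39 to 2.08), and 158 an old one, 2.79% (2.37 to 3.25). Of the 2767 old-only sites, 116 overlapped a young Foxa2 site, 4.19% (3.48 to 5.01), and 51 an old one, 1.84% (1.37 to 2.42). The old Foxa2 list holds 12834 sites and the young one 6604. The order at young-only Hdac3 sites thus went with the lengths of the Foxa2 lists, and the order at old-only Hdac3 sites ran against them. The shares were not scaled to these lengths. Outside runs the order was the same, with 1.20% on young and 2.70% on old Foxa2 sites for young-only Hdac3, and 2.54% and 1.36% for old-only Hdac3. At a distance of up to 10 kb the order held for young-only Hdac3, with 11.4% near young and 19.5% near old Foxa2, but not for old-only Hdac3, with 14.9% near young and 16.5% near old Foxa2. The site sets were also unlike in width: young-only Hdac3 sites that overlapped only old Foxa2 had a median of 29 bp, and old-only sites that overlapped only young Foxa2 had 69 bp, 37 of these 81 in runs. The part of width and runs in this order was not tested beyond the values given.

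**Figure D5:**
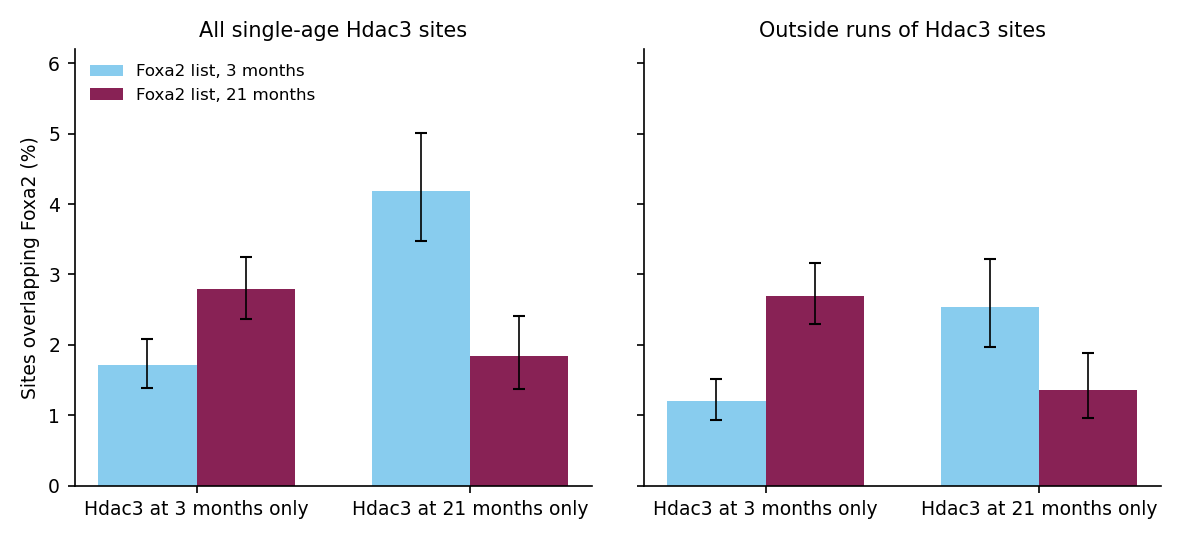
Share of single-age Hdac3 sites (percent) that overlap a Foxa2 site of the 3 months or the 21 months list, for all such sites (left) and outside runs (right), with exact 95% intervals for counting error. For young-only Hdac3 sites the share on old Foxa2 is the larger (2.79% against 1.71%) and for old-only sites the share on young Foxa2 (4.19% against 1.84%), also outside runs. The old Foxa2 list is the longer one (12834 against 6604 sites).

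By contrast, Hdac3 sites found at both ages mostly lay on Foxa2 sites of both ages. Of the 158 young sites among them, 88.6% overlapped a young and 64.6% an old Foxa2 site, and of the 163 old sites 90.2% and 65.6%. The regions held by all 4 lists, which contain Foxa2 by definition, gave most of these. Outside them 30 of 46 young and 31 of 46 old sites overlapped a young Foxa2 site, and 3 of each an old one. Sites on Foxa2 of both ages could not be left there, by the definition of these regions. No Foxa2 site was overlapped by 5462 young-only sites, 96.3% of them, and 2635 old-only sites, 95.2%, with median widths of 24 and 20 bp. Within 10 kb of a Foxa2 site of either age, overlapping ones included, lay 22.7% of young-only and 21.6% of old-only sites.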

How the data were processed

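Hdac3 and Foxa2 were located by ChIP-seq in mouse liver, with 2 libraries per protein and age grouped by their titles. Per the labels, each group has 1 list for its 2 libraries. The submitters' processing notes name BWA as a tool and mm9 as the genome build. The peak caller, the control, read depths and how libraries were combined were not given in the sources used here, so the precision of single values is unknown. Per the file headers, the deposited values are an enrichment ratio and a q-value per site. All sites were used, with the end counted in the site. Ranks follow q, then enrichment. From the lists, overlaps (at least 1 bp, equal to bedtools 2.31.1), distances, runs, widths and steps of enrichment were computed with Python 3.11.15, numpy 2.4.6, pandas 2.3.3 and scipy 1.17.1. Overlap and step code was tested on simulated data. Sites named were, per class, the 4 with the best q, over all regions and outside regions held by all 4 lists, the 4 with the highest enrichment and the 2 widest, runs of 20 or more sites, and the 4 largest and 4 smallest enrichment ratios. Members, rules and alternatives were chosen with earlier results of these data known, and the steps, wide sites and chromosome starts after seeing the values. Gene lists, motifs and sequences were not analysed here, because the gene and promoter tables at hand are of another build.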

Additional observations from a re-analysis of the deposited data

Results flagged for a closer look

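Hdac3 and Foxa2 differed in which age had the longer list. The old Hdac3 list held 0.503 times and the old Foxa2 list 1.94 times as many sites as the young one. The difference was not tested, because each group had 1 list. For Hdac3 the direction turned at q of at most 0.1 and 0.05. At 0.01 the Hdac3 ratio was 1.15, with an interval of 0.832 to 1.58 that includes 1.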

How the results depend on the processing

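Of 60 alternatives to 9 results, 16 stayed within the counting interval of the reported value, 41 left it and 3 turned the direction. A turn was counted by the value alone, and only for a ratio whose reported interval excluded 1. That was only the number of sites, so no other result could be counted as turned. The number of old over young sites turned from 0.503 to 1.73 and 2.22 at q of at most 0.1 and 0.05. At q of at most 0.01 it was 1.15, with an interval of 0.832 to 1.58 that includes 1. It was 0.477 for sites of 30 bp or wider and 0.479 outside runs. The share of young sites found at both ages (2.71%) was 6.83%, 63.8% and 75% at those q limits, 0.806% outside regions held by all 4 lists, which hold both Hdac3 lists by definition, 5.61% for sites of 30 bp or wider, 1.92% when 50% of each site had to overlap, 3.52% with edges within 500 bp, 3.89% and 1.02% with equal numbers of sites by q and by enrichment, and 1.72% outside runs. For old sites (5.56%) the shares were 3.996%, 28.8% and 65.5% at the q limits, then 1.64%, 12.0%, 3.82%, 7.47%, 4.06%, 1.06% and 3.23% in the same order. The median enrichment ratio was 1.08 outside regions held by all 4 lists. The median width ratio was 0.993 at q of at most 0.1 and 1.08 outside those regions. The share of young-only sites on Foxa2 (3.67%) was 4.83% at q of at most 0.1, 5.07% at 30 bp or wider, 1.03% with 50% overlap, 6.60% within 500 bp and 3.15% outside runs. For old-only sites (4.77%) these were 6.13%, 10.7%, 2.66%, 6.97% and 3.03%. The q limit was set on all lists before sites of 1 age were counted, so sites that lost their partner were included. With sites of 1 age defined by the full lists, the shares at q of at most 0.1 were 4.78% of young-only and 4.35% of old-only sites. Sites in runs made up 0.755% of young and 1.91% of old sites with gaps of at most 1 kb, 16.4% and 10.9% with 100 kb, so that the order of the lists turned, and 3.03% and 5.75% at q of at most 0.1. The cause of these changes was not tested, except that stricter limits leave fewer sites. The alternative outside runs was chosen after seeing the data. No paired analysis was possible because the libraries of a group are represented by 1 list, which also prevents leaving out a library. Read depth is unknown, so which differences depth limits cannot be said.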
